A study of Saccharomyces cerevisiae with 6 samples.

Results

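The general stress genes of budding yeast (Saccharomyces cerevisiae) described here are 35 genes, listed by symbol: the transcription factor genes MSN2 and MSN4 together with genes listed as part of the general stress response that they drive. All 35 were found under their listed symbols, each with 1 probe set, among 5498 tested probe sets annotated to this yeast. Total RNA was measured on 6 Affymetrix arrays, 3 from cells carrying a deletion of VPS4 and 3 from wild type cells. Both groups were in mid-log growth at 26 °C in YNB synthetic medium supplied with the amino acids the cells needed. The labels name no strain background, selection marker or mating type, and they do not say whether replicates were separate cultures. The p-values therefore rest on the spread among these arrays alone, which may be technical. In RNA of a whole culture, a change in the share of cells that express a gene and a change in its level per cell cannot be told apart. Vps4 is an ATPase that disassembles ESCRT-III, the complex that forms vesicles inside endosomes. The title of the series places the comparison in work on ESCRT mutants and amino acid recycling.

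Msn2 and Msn4 are related zinc finger proteins that activate a common set of genes when yeast meets heat, osmotic or oxidative stress, loss of glucose or poor nutrients. In well-fed cells protein kinase A and the TOR pathway keep them largely in the cytoplasm. Under stress they enter the nucleus and bind stress response elements in the promoters of their targets. The targets include small proteins that protect membranes, enzymes that remove oxidants and aldehydes, enzymes of sugar metabolism and inhibitors of vacuolar proteases. Since the control of both factors lies mainly in their location, their own mRNA level is a separate quantity from their activity.

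All values are log2 expression values per probe set as deposited, so a difference of 1 is a 2-fold change, and levels of different genes are not set against each other because each probe set binds with its own strength. The deletion arrays carried at least 760-fold less VPS4 than wild type (limma adjusted p = 1.30e-07). Wild type replicate 3 stood apart from the other arrays. Over all tested probe sets its Pearson correlation, taken across genes that are no independent replicates, was 0.9926 with each of the other wild type arrays, while those correlated at 0.9991 with each other and at 0.9936 to 0.9943 with the deletion arrays. Each result is therefore given with all 6 arrays and with that array left out, which leaves 2 wild type arrays. Since the array was set apart by its values in these same data, the p-values of the fit without it may be too small. Of 11 mating type markers STE2, SAG1, MF(ALPHA)2 and MFA2 were lower in the deletion and 7 did not pass, while 1.46% of all tested probe sets were called lower. SAG1 and MF(ALPHA)2 are markers of alpha cells, and STE2 and MFA2 of a cells. In the fit without wild type replicate 3, 7 of the 11 markers were lower, against 10.1% of all tested probe sets. Whether the groups differed in mating type was not tested.

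In cells without VPS4, 5 of the 35 stress genes rose. They were GRE1, DDR48, GCY1, TKL2 and MSC1, with increases between 1.55-fold and 2.59-fold. The other 30 did not pass the test (limma, Benjamini-Hochberg over 5498 probe sets, threshold 0.05), and 0 fell. The stress genes called higher were 14.3%, while over all tested probe sets 2.82% were called higher, 1.46% lower and 4.27% in either direction. At an unadjusted p under 0.05, 15 of the 35 were higher and 2 were lower, and of all tested probe sets 9.62% were higher and 7.80% lower.

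The median difference of the 35 genes, VPS4 deletion minus wild type, was 0.26 log2, and that of all tested probe sets was 0.00 when rounded. The 3 deletion arrays lay above all 3 wild type arrays in 17 of the genes and below them in 2, while 13.0% and 11.8% of all tested probe sets were separated in these ways. The genes that lay wholly below were MSN4 and HXK1, and neither passed the test with all arrays. With 3 arrays a group, the smallest p of a two-sided exact permutation test is 0.1, so separation alone carries no smaller p.

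Without wild type replicate 3, 20 of the 35 genes were higher in the deletion, 6 were lower and 9 did not pass. The stress genes called higher were 57.1% and those called lower 17.1%, while in that fit 11.9% of all tested probe sets were called higher, 10.1% lower and 22.0% in either direction. The median difference was 0.22 log2. All 5 genes called with 6 arrays were among the 20. The 6 lower genes were SPG4, MOH1, FMP16, MSN4, HSP12 and HXK1. Leaving out wild type replicate 3 lowered the median standard error of the members to 0.08, against 0.12 with all arrays.

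Leaving out any of the other arrays lowered the count of higher genes. It was 3 without wild type replicate 4, wild type replicate 6, deletion replicate 4 or deletion replicate 6, and 2 without deletion replicate 5. Over all tested probe sets the number called higher fell in these fits as well, from 155 with all arrays. That number was 81 and 67 without wild type replicates 4 and 6, and 44, 17 and 37 without deletion replicates 4, 5 and 6. DDR48 and GCY1 passed in each of the 6 fits that left out an array. TKL2 passed in 5 of them, failing without deletion replicate 5, whereas GRE1 and MSC1 passed only when wild type replicate 3 was the array left out.

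**Figure D1:**
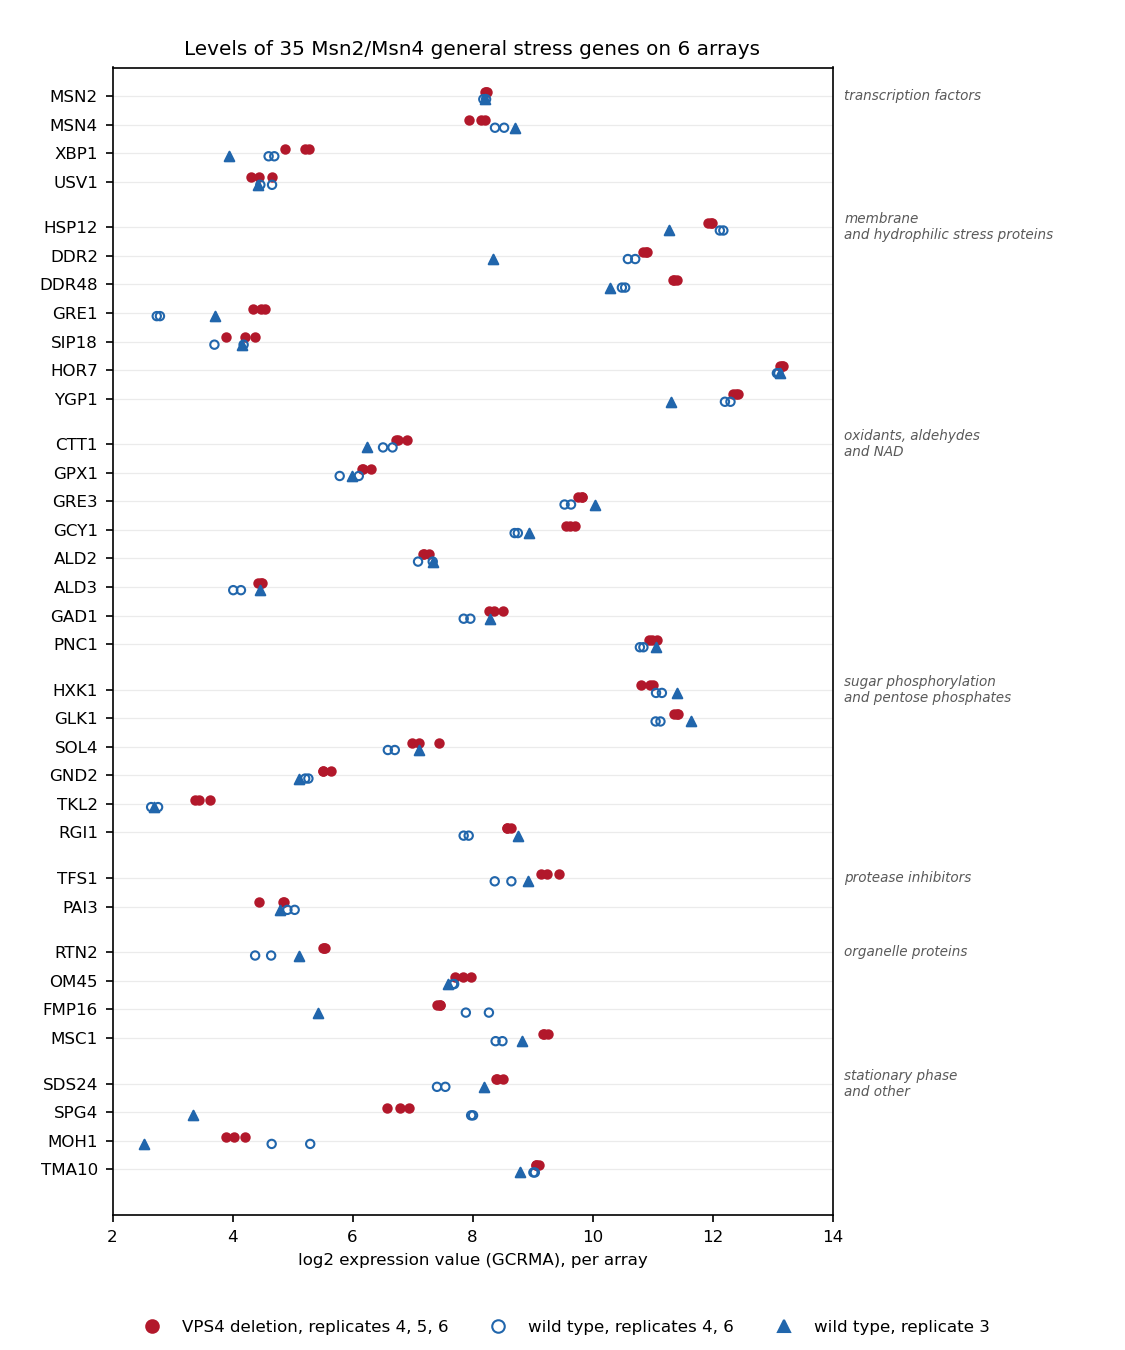
Log2 expression value of each of the 35 genes (rows, grouped by role) on each array, with 3 VPS4 deletion arrays as filled circles, wild type replicates 4 and 6 as open circles and wild type replicate 3 as a triangle. DDR48, GCY1 and TKL2 show all deletion points to the right of all wild type points, and in SPG4, FMP16, MOH1 and DDR2 the triangle lies far to the left.

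Neither MSN2 nor MSN4 passed the test with all arrays. MSN2, which encodes the factor that carries most of the stress response, gave 8.21, 8.24 and 8.22 in deletion replicates 4, 5 and 6, against 8.23, 8.18 and 8.21 in wild type replicates 4, 6 and 3. The groups overlapped and lay within 0.1 log2 of each other. The difference was 0.02 ± 0.04 (SE; limma adjusted p = 0.870), with a 95% interval of -0.08 to 0.13, and was also 0.02 without wild type replicate 3.

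MSN4, the inducible partner of MSN2, gave 8.21, 8.14 and 7.94 in deletion replicates 4, 5 and 6, against 8.53, 8.37 and 8.70 in wild type replicates 4, 6 and 3. Every deletion array lay below every wild type array. The difference of -0.44 ± 0.11 (SE) did not pass with all arrays (limma adjusted p = 0.0742). Without wild type replicate 3, the highest of the 6, MSN4 was lower in the deletion by -0.35 ± 0.08 (limma adjusted p = 0.0149), a level 1.28-fold lower.

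The other regulators in the list are USV1, a zinc finger protein linked to growth on non-fermentable carbon, and XBP1, a stress-induced repressor. XBP1 stood at 5.12 ± 0.21 in the deletion and 4.42 ± 0.41 in wild type (SD, n = 3 each), a difference of 0.71 (limma adjusted p = 0.146) that missed the threshold. The lowest array was wild type replicate 3, and without it XBP1 was 1.39-fold higher in the deletion (limma adjusted p = 0.0265). USV1 differed by -0.05 ± 0.12 (SE) and passed in neither fit.

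Of 7 genes for membrane and hydrophilic stress proteins, 2 rose with all arrays, and 5 were higher and 1 lower without wild type replicate 3. Over all tested probe sets 2.82% were called higher with all arrays, and 11.9% higher and 10.1% lower without that one. GRE1 encodes a hydrophilin, a small water-loving protein that helps cells through drying. It gave 4.34, 4.48 and 4.54 in deletion replicates 4, 5 and 6, against 2.79, 2.74 and 3.71 in wild type replicates 4, 6 and 3. The deletion arrays lay above all wild type arrays, and wild type replicate 3 lay between the deletion and the other wild type arrays. GRE1 rose 2.59-fold, by 1.37 ± 0.26 (SE; limma adjusted p = 0.0366), and 3.22-fold without wild type replicate 3 (limma adjusted p = 6.40e-06).

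GRE1 was dim on all arrays, in a range where GCRMA shrinks differences, though above background on each. Its call ended without the variance trend and with quantile normalization. SIP18, the other hydrophilin gene of the list, was dim as well. It ranged from 3.89 to 4.38 in the deletion and from 3.70 to 4.18 in wild type. The groups overlapped, and the difference of 0.15 ± 0.18 (SE) did not pass in either fit.

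DDR48, a gene named for its response to DNA damage, had the smallest adjusted p of the list. It gave 11.41, 11.36 and 11.35 in deletion replicates 4, 5 and 6, against 10.49, 10.54 and 10.28 in wild type replicates 4, 6 and 3. The groups lay far apart compared with the spread within either. DDR48 rose 1.91-fold, by 0.93 ± 0.07 (SE; limma adjusted p = 0.00230), and 1.81-fold without wild type replicate 3 (limma adjusted p = 8.09e-08).

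DDR2, another gene named for DNA damage and raised by many stresses, gave 10.85, 10.89 and 10.92 in deletion replicates 4, 5 and 6, against 10.71, 10.59 and 8.34 in wild type replicates 4, 6 and 3. The groups did not overlap, and wild type replicate 3 lay over 2 log2 below the other wild type arrays. The difference of 1.002 ± 0.60 (SE) did not pass (limma adjusted p = 0.455), and its 95% interval ran from -0.42 to 2.42. Without wild type replicate 3, DDR2 was higher in the deletion by 0.23 ± 0.04 (SE; limma adjusted p = 0.00210), or 1.18-fold.

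HSP12, which encodes a small protein that binds and steadies the plasma membrane and is often used as a reporter of Msn2 activity, gave 11.98, 12.00 and 11.93 in deletion replicates 4, 5 and 6, against 12.18, 12.12 and 11.28 in wild type replicates 4, 6 and 3. In wild type replicate 3 it lay below all deletion arrays, while the other wild type arrays lay above them. The difference was 0.11 ± 0.23 (SE; limma adjusted p = 0.869) with all arrays and -0.18 ± 0.03 without wild type replicate 3 (limma adjusted p = 0.00135).

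The remaining genes of this role are YGP1, a secreted glycoprotein made when nutrients run low, and HOR7, a small membrane protein raised by high osmolarity. YGP1 stood at 12.38 ± 0.04 in the deletion and 11.94 ± 0.55 in wild type (SD, n = 3 each), with wild type replicate 3 the lowest array at 11.31. The difference of 0.44 ± 0.25 (SE) did not pass, and without that array YGP1 was 1.09-fold higher (limma adjusted p = 0.0178). HOR7 was 1.05-fold higher in that fit and did not pass with all arrays.

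**Figure D2:**
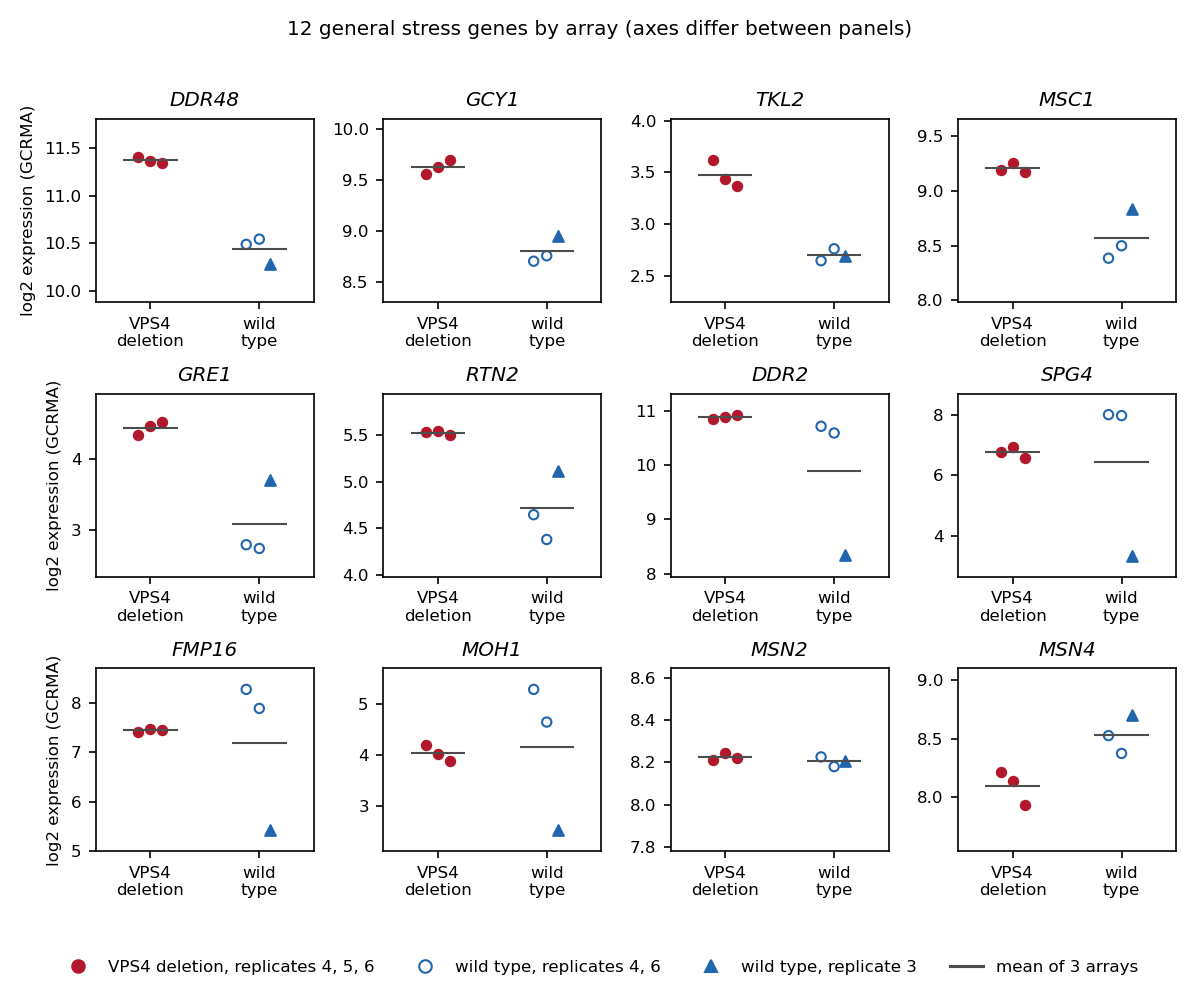
Log2 expression value by array for 12 of the genes (panels), with the VPS4 deletion arrays at the left and the wild type arrays at the right of each panel, horizontal lines for the means of 3 arrays and a triangle for wild type replicate 3. Vertical axes differ between panels, and in DDR2, SPG4, FMP16 and MOH1 the triangle lies far below the open circles.

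Among 8 genes for oxidants, aldehydes and NAD, GCY1 rose and 7 did not pass, while 2.82% of all tested probe sets were called higher. GCY1 encodes an aldo-keto reductase that acts as a glycerol dehydrogenase. It gave 9.56, 9.62 and 9.70 in deletion replicates 4, 5 and 6, against 8.70, 8.76 and 8.95 in wild type replicates 4, 6 and 3. All deletion arrays lay well above all wild type arrays. The rise was 1.77-fold, 0.83 ± 0.07 (SE; limma adjusted p = 0.00439), and 1.86-fold without wild type replicate 3 (limma adjusted p = 1.98e-06).

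CTT1, the cytosolic catalase and a classical Msn2 target, gave 6.73, 6.91 and 6.76 in deletion replicates 4, 5 and 6, against 6.51, 6.67 and 6.24 in wild type replicates 4, 6 and 3. The groups did not overlap, by a margin of less than 0.1 log2. The difference of 0.33 ± 0.12 (SE) passed neither with all arrays (limma adjusted p = 0.221) nor without wild type replicate 3 (limma adjusted p = 0.118). GPX1, a glutathione peroxidase gene, differed by 0.25 ± 0.10 (SE) and likewise passed in neither fit.

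The aldehyde dehydrogenase genes ALD2 and ALD3 are close copies that lie side by side, so their probe sets may pick up each other's transcript. ALD2 differed by -0.04 ± 0.08 (SE), with a 95% interval of -0.24 to 0.16. ALD3 was dim on all arrays, in the range of GRE1. It differed by 0.26 ± 0.12 (SE) and passed only without wild type replicate 3, at 1.31-fold (limma adjusted p = 0.0232). The same held for GAD1, the glutamate decarboxylase gene, at 1.38-fold, GRE3, the aldose reductase gene, at 1.16-fold, and PNC1, the nicotinamidase gene, at 1.14-fold. In these 4 genes wild type replicate 3 lay within or above the range of the deletion arrays.

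Sugar phosphorylation and the pentose phosphate pathway gave 1 rising gene of 6, while 2.82% of all tested probe sets were called higher. TKL2, the minor transketolase gene, gave 3.62, 3.44 and 3.37 in deletion replicates 4, 5 and 6, against 2.64, 2.76 and 2.69 in wild type replicates 4, 6 and 3. The 3 wild type arrays agreed closely, wild type replicate 3 included. Like GRE1, TKL2 was dim on all arrays, in a range where GCRMA draws values together and shrinks differences. It lay above background on each array. TKL2 rose 1.72-fold, by 0.78 ± 0.10 (SE; limma adjusted p = 0.00928), and 1.71-fold without wild type replicate 3 (limma adjusted p = 0.00154).

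GND2 and SOL4 encode the minor 6-phosphogluconate dehydrogenase and a 6-phosphogluconolactonase of the same pathway. GND2 stood at 5.55 ± 0.08 in the deletion and 5.20 ± 0.08 in wild type (SD, n = 3 each), and did not pass with all arrays (limma adjusted p = 0.0626) but was 1.24-fold higher without wild type replicate 3 (limma adjusted p = 0.0396). SOL4 gave 7.11, 7.44 and 6.99 in deletion replicates 4, 5 and 6, against 6.59, 6.71 and 7.12 in wild type replicates 4, 6 and 3. The range of the deletion arrays included wild type replicate 3. The difference was 0.37 ± 0.17 (SE; limma adjusted p = 0.324), or 0.53 ± 0.12 without that array (limma adjusted p = 0.0127).

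GND1 and SOL3 are the major forms of these enzymes in growing cells. GND1 differed by 0.08 ± 0.02 (SE; limma adjusted p = 0.0550) and SOL3 by 0.11 ± 0.02 (limma adjusted p = 0.0689). Of 13 measured paralogs of the stress genes none passed with limma, 4 being higher and 1 lower at an unadjusted p under 0.05, where 9.62% and 7.80% of all tested probe sets were. In the fit without wild type replicate 3, 4 were higher and 2 lower, or 30.8% and 15.4%, against 11.9% and 10.1% of all tested probe sets. The median difference of the paralogs was 0.02 log2.

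The glucose kinases HXK1, a hexokinase, and GLK1, the glucokinase, differed in opposite directions with and without wild type replicate 3. HXK1 gave 10.81, 11.01 and 10.96 in deletion replicates 4, 5 and 6, against 11.06, 11.16 and 11.41 in wild type replicates 4, 6 and 3, and the groups did not overlap. Without wild type replicate 3, HXK1 was 1.14-fold lower (limma adjusted p = 0.0358) and GLK1 1.24-fold higher (limma adjusted p = 9.25e-05). Neither passed with all arrays. There HXK1 differed by -0.29 ± 0.10 (SE; limma adjusted p = 0.191) and GLK1 by 0.13 ± 0.14 (limma adjusted p = 0.726).

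RGI1, a gene of energy metabolism under respiratory growth, gave 8.58, 8.57 and 8.64 in deletion replicates 4, 5 and 6, against 7.85, 7.94 and 8.76 in wild type replicates 4, 6 and 3. Here the highest array was wild type replicate 3, and the other wild type arrays were the lowest. The difference was 0.41 ± 0.23 (SE; limma adjusted p = 0.428), and 0.70 ± 0.05 without wild type replicate 3 (limma adjusted p = 1.71e-05).

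The protease inhibitors act on vacuolar enzymes, the endpoint of the pathway in which Vps4 works. TFS1, the inhibitor of carboxypeptidase Y, gave 9.14, 9.43 and 9.24 in deletion replicates 4, 5 and 6, against 8.65, 8.37 and 8.92 in wild type replicates 4, 6 and 3. The deletion arrays lay above all wild type arrays. The difference of 0.63 ± 0.14 (SE) did not pass with all arrays (limma adjusted p = 0.0664), and TFS1 was 1.70-fold higher without wild type replicate 3 (limma adjusted p = 0.000399).

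PAI3, the inhibitor of proteinase A, gave 4.84, 4.86 and 4.45 in deletion replicates 4, 5 and 6, against 5.04, 4.91 and 4.80 in wild type replicates 4, 6 and 3. The groups overlapped. The difference of -0.20 ± 0.13 (SE) passed in neither fit and had a 95% interval of -0.52 to 0.12. The difference between the inhibitors was not tested.

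Among 4 genes of organelle proteins 1 rose, while 2.82% of all tested probe sets were called higher. The risen gene was MSC1, found through its effect on meiotic recombination. It gave 9.19, 9.26 and 9.17 in deletion replicates 4, 5 and 6, against 8.39, 8.50 and 8.83 in wild type replicates 4, 6 and 3. The groups did not overlap, and wild type replicate 3 was the closest wild type array to the deletion. MSC1 rose 1.55-fold, by 0.64 ± 0.11 (SE; limma adjusted p = 0.0292), and 1.70-fold without wild type replicate 3 (limma adjusted p = 6.81e-06).

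RTN2, which encodes a reticulon that bends membranes of the endoplasmic reticulum, gave 5.53, 5.55 and 5.50 in deletion replicates 4, 5 and 6, against 4.64, 4.38 and 5.11 in wild type replicates 4, 6 and 3. The deletion arrays agreed closely and lay above all wild type arrays. The difference of 0.82 ± 0.18 (SE) just missed the threshold (limma adjusted p = 0.0578), and RTN2 was 2.02-fold higher without wild type replicate 3 (limma adjusted p = 0.000122). OM45, a protein of the mitochondrial outer membrane, differed by 0.19 ± 0.08 (SE) and passed in neither fit.

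FMP16, a mitochondrial protein, turned direction with the choice of arrays. It gave 7.42, 7.46 and 7.46 in deletion replicates 4, 5 and 6, against 8.27, 7.89 and 5.43 in wild type replicates 4, 6 and 3. The deletion arrays lay between wild type replicate 3 and the other wild type arrays. The difference was 0.25 ± 0.69 (SE; limma adjusted p = 0.903), and FMP16 was 1.55-fold lower in the deletion without wild type replicate 3 (limma adjusted p = 0.00169).

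The stationary phase genes SPG4 and MOH1, known from their part in survival after growth stops, showed the same order of arrays. SPG4 gave 6.79, 6.94 and 6.58 in deletion replicates 4, 5 and 6, against 8.01, 7.98 and 3.34 in wild type replicates 4, 6 and 3. In that last array alone it lay in the dim range of GRE1 and TKL2. The difference of 0.33 ± 1.20 (SE; limma adjusted p = 0.929) has a 95% interval from -2.54 to 3.20, which spans both directions. Without wild type replicate 3, SPG4 was 2.34-fold lower in the deletion, by -1.23 ± 0.10 (SE; limma adjusted p = 2.47e-05).

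MOH1 gave 4.21, 4.03 and 3.89 in deletion replicates 4, 5 and 6, against 5.30, 4.65 and 2.52 in wild type replicates 4, 6 and 3. It was dim too, above all in wild type replicate 3, where GCRMA may shrink differences. Again the deletion arrays lay between wild type replicate 3 and the other wild type arrays. The difference was -0.12 ± 0.65 (SE; limma adjusted p = 0.953) with all arrays, and -0.93 ± 0.18 without wild type replicate 3 (limma adjusted p = 0.00517), a level 1.91-fold lower.

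SDS24, related to the cell separation gene SDS23, gave 8.40, 8.39 and 8.51 in deletion replicates 4, 5 and 6, against 7.55, 7.41 and 8.19 in wild type replicates 4, 6 and 3. The deletion arrays lay above all wild type arrays. The difference of 0.72 ± 0.19 (SE) did not pass with all arrays (limma adjusted p = 0.105), and SDS24 was 1.94-fold higher without wild type replicate 3 (limma adjusted p = 8.69e-06). TMA10, a ribosome-associated protein, differed by 0.13 ± 0.07 (SE) and passed in neither fit.

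**Figure D3:**
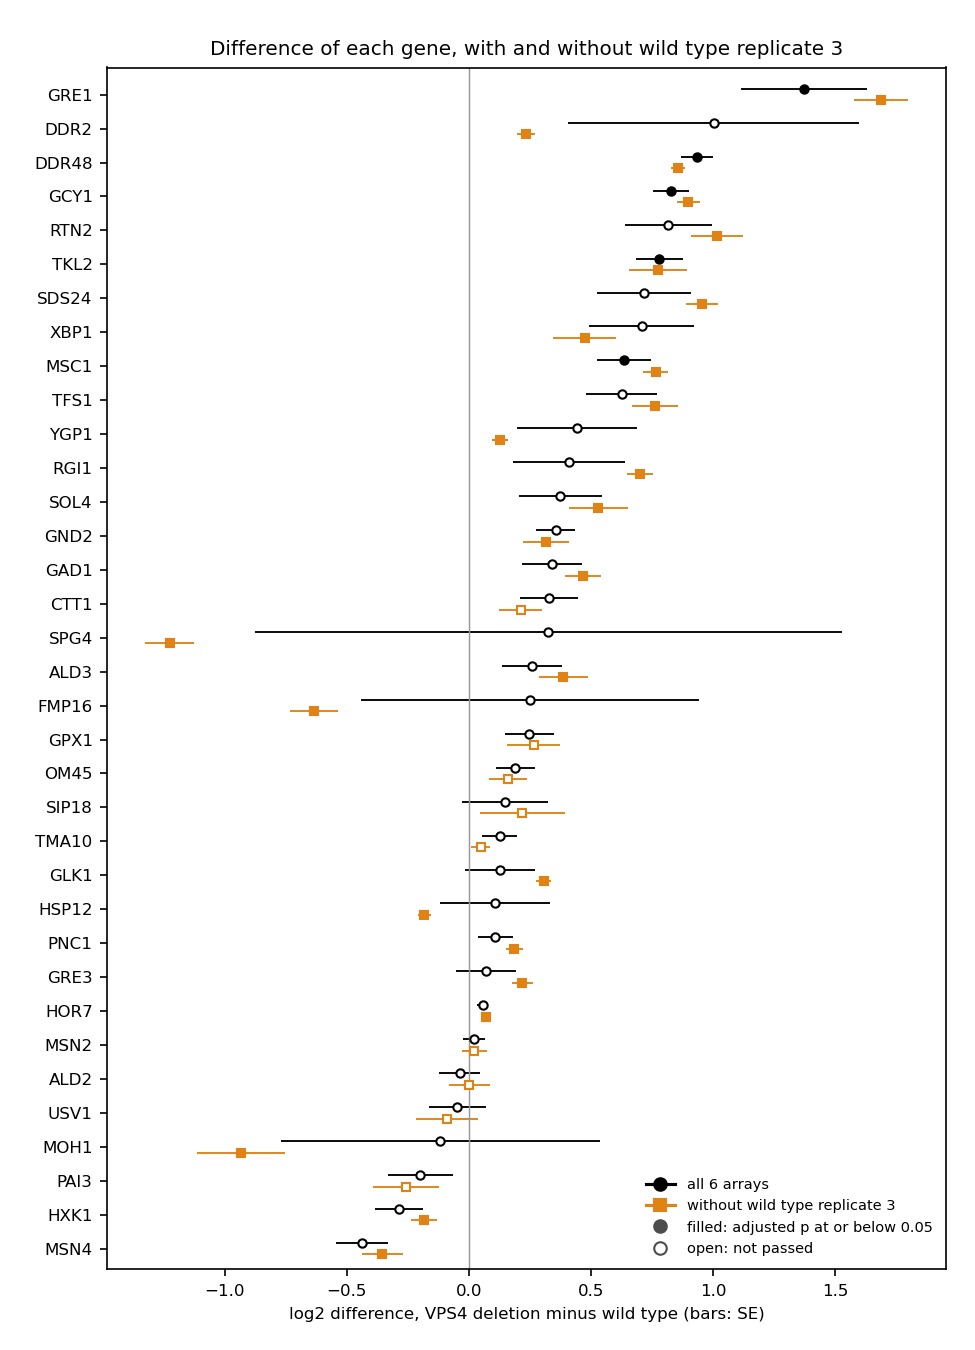
Log2 difference of each gene, VPS4 deletion minus wild type, with bars of 1 SE, from all 6 arrays (circles) and without wild type replicate 3 (squares), filled where the adjusted p was at or below 0.05. The 5 filled circles are GRE1, DDR48, GCY1, TKL2 and MSC1, and the squares of SPG4, FMP16, MOH1 and HSP12 lie below 0 where the circles of SPG4, FMP16 and HSP12 lie above it.

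In all, 9 of the 35 genes passed in neither fit: MSN2, USV1, SIP18, CTT1, GPX1, ALD2, PAI3, OM45 and TMA10. Without wild type replicate 3 the absolute differences of these genes had a median of 0.16 and reached 0.26 log2 in GPX1. With all arrays the 95% intervals of these genes ran from -0.52 in PAI3 to 0.61 in CTT1. The intervals are not adjusted for the number of probe sets. They lay wholly above 0 in CTT1, GPX1 and OM45, with lower ends of 0.05, 0.009 and 0.003, and spanned 0 in the others.

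Wild type replicate 3 was also set beside the other wild type arrays directly, as 1 array against 2 and so with no test. It differed from their mean by at least 1 log2 in 4 of the 35 genes, 11.4%, while 1.33% of all tested probe sets did so. All 4 were lower there: SPG4 by -4.65 log2, FMP16 by -2.66, MOH1 by -2.45 and DDR2 by -2.31. The departure of SPG4, 25.2-fold, was the widest of all 5498 tested probe sets.

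Inside that limit, the widest departures on the low side were those of YGP1, at -0.95, HSP12, at -0.87, and XBP1, at -0.70. The widest on the high side were those of GRE1, at 0.95, RGI1, at 0.87, SDS24, at 0.71, and RTN2, at 0.60. The stress genes thus did not shift together in that array: 20 lay above the mean of the other wild type arrays and 15 below it, with a median of 0.05 log2. It was the lowest of the 6 arrays in 34.3% of the stress genes and the highest in 14.3%, against 27.6% and 28.5% of all tested probe sets.

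Wild type replicates 4 and 6 differed from each other by a median of 0.11 log2 over the 35 genes, and by 0.64 in MOH1, the widest. Over the same genes the median absolute departure of replicate 3 from the mean of those arrays was 0.38. Over all tested probe sets these medians were smaller, 0.045 between replicates 4 and 6 and 0.11 for replicate 3. The deletion arrays were closer to each other than the wild type arrays in 30 of the 35 genes, and in 69.5% of all tested probe sets. These departures and the differences between genotypes share wild type replicates 4 and 6.

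**Figure D4:**
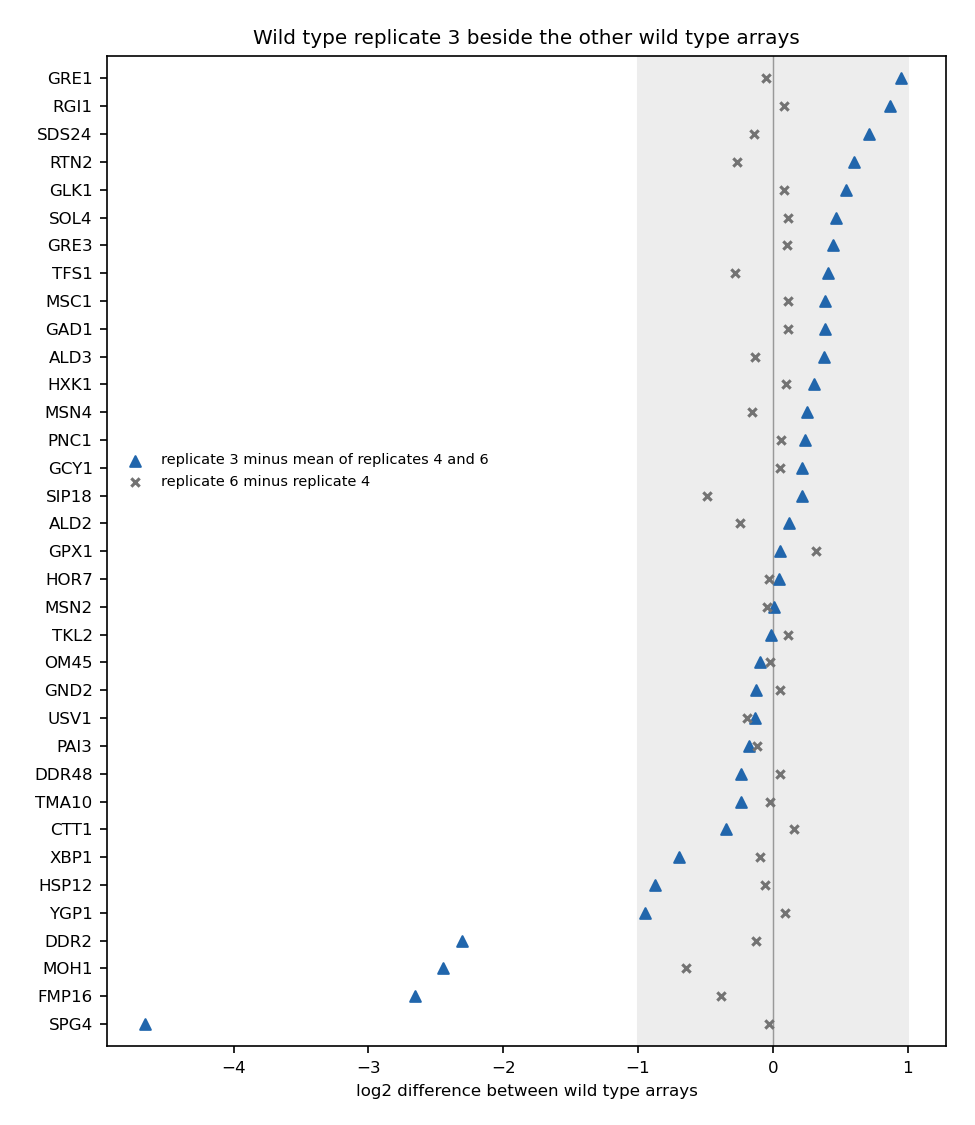
Log2 difference of wild type replicate 3 from the mean of wild type replicates 4 and 6 (triangles) for each of the 35 genes, beside the difference of replicate 6 from replicate 4 (crosses); the shaded band marks 1 log2 on either side of 0. SPG4, FMP16, MOH1 and DDR2 fall outside the band on the low side and the crosses stay within it.

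Genes that control Msn2 and Msn4 did not pass as single genes. Of 32 measured regulators, among them genes of the Ras pathway, the kinases Rim15, Yak1, Snf1 and Sch9 and the exportin Msn5, 0 passed with limma. At an unadjusted p under 0.05, 4 were higher and 1 lower, and of all tested probe sets 9.62% and 7.80%. YAK1, a kinase that acts against growth signals from protein kinase A, came closest, at 0.22 ± 0.05 (SE; limma adjusted p = 0.0651). PSR1, a plasma membrane phosphatase linked to Msn2 activation, followed at 0.15 ± 0.04 (limma adjusted p = 0.132). Leaving out wild type replicate 3 gave 10 regulators higher and 3 lower, or 31.2% and 9.38%, against 11.9% and 10.1% of all tested probe sets. The list's median difference was 0.03 log2 with all arrays and 0.06 without that one.

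A second list rests on gene names alone, since promoters were not searched for stress response elements. It held 36 other measured genes listed as carrying them, among them chaperone, trehalose, glycogen and redox genes. Of these 10 rose, 0 fell and 26 did not pass (limma), so that 27.8% were called higher, against 2.82% of all tested probe sets. At an unadjusted p under 0.05, 20 were higher and 2 lower, where 9.62% and 7.80% of all tested probe sets were. The median difference was 0.18 log2. With wild type replicate 3 left out, 26 were higher and 1 lower, or 72.2% and 2.78%, against 11.9% and 10.1% of all tested probe sets. HSP26, a small heat shock chaperone, rose by 2.76 ± 0.20 (SE; limma adjusted p = 0.00230), and SSA3 and SSA4, stress-induced chaperones of the Hsp70 family, by 1.01 ± 0.10 and 0.72 ± 0.06.

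Others of that list that rose were ECM4, a glutathione transferase gene, by 0.67 ± 0.07 (SE), HSP42, a small heat shock chaperone, by 0.58 ± 0.07, and PRB1, the vacuolar protease B gene, by 0.52 ± 0.05. Of 19 targets of the heat shock factor Hsf1, 2 rose and 17 did not pass, so that 10.5% were called higher, against 2.82% of all tested probe sets, and the median difference was -0.04 log2. The risen genes were BTN2, which sorts misfolded proteins, at 0.52 ± 0.07 (SE; limma adjusted p = 0.0140), and CPR6, an Hsp90 co-chaperone, at 0.11 ± 0.02 (limma adjusted p = 0.0480). The counts without wild type replicate 3 were 3 higher and 2 lower, or 15.8% and 10.5%, near the 11.9% and 10.1% of all tested probe sets. The deletion arrays lay above all wild type arrays in 5 of the 19 genes and below them in 8. Over all tested probe sets these shares were 13.0% and 11.8%. Heat shock genes such as HSP26, SSA3, SSA4 and HSP42 were counted in the second list alone, and the difference between the lists was not tested.

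Ribosome biogenesis genes, which fall in the general stress response as its targets rise, gave 0 calls among 54 with limma, and 0 at an unadjusted p under 0.05, where 9.62% of all tested probe sets were higher and 7.80% lower. Their median difference was -0.01 log2. NOP15 and RPA135 had the smallest p-values, with differences of 0.15 ± 0.07 and -0.08 ± 0.04 (SE). The lowest of the 6 arrays was wild type replicate 3 in 48 of these genes, 88.9%, against 27.6% of all tested probe sets. That array lay a median of -0.26 log2 from the other wild type arrays, against 0.003 over all tested probe sets. With it left out, 25 of the 54, or 46.3%, were lower in the deletion, against 10.1% of all tested probe sets, and the median was -0.09. The part of this shift in the differences of the stress genes was not tested.

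Several of the stress genes are neighbours. ALD3, ALD2, DDR48, PAI3 and SIP18 lie in a run of 7 genes on chromosome XIII that also holds EAR1 and HOT1, by the order of a gene table of assembly R64. Within this run DDR48 rose, by 0.93, while PAI3, the next gene, and HOT1, the gene before it, differed by -0.20 and 0.00 when rounded. EAR1, an adaptor of the ubiquitin ligase Rsp5, differed by -0.08 ± 0.06 (SE; limma adjusted p = 0.599). DDR48 was thus the called gene of the run, with ALD3 also higher without wild type replicate 3. This run and its genes outside the stress list were chosen after their values were seen.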

How the data were processed

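The deposited table holds log2 expression values for 10928 probe sets on 6 arrays, made with GCRMA (version not given) per the submitters' processing notes; background correction and quantile normalization are part of that method. GCRMA draws dim probe sets together, which shrinks their differences. Array medians over the tested probe sets lay between 9.12 and 9.15, and the number of arrays limits the precision. Groups and replicate numbers come from the sample titles.

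Gene names came from the platform's annotation, matched by gene ID to a RefSeq gene table of assembly R64. The 5498 that matched, covering 5449 genes, were tested. Background was percentile 95 of the 1746 probe sets of another yeast on each array, and all 35 stress genes lay above it on all 6 arrays. VPS4 did not do so in the deletion, so its fold is a bound: the wild type mean against the mean, per deletion array, of the higher of background and the measured value.

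Differences are VPS4 deletion minus wild type, fitted with limma 3.58.1 in R 4.3.3 (lmFit, eBayes with variance trend, genotype alone, two-sided), with Benjamini-Hochberg adjustment over the 5498 probe sets and a threshold of 0.05. SE is the moderated standard error. The fit was tested on simulated data. The members, lists, alternatives and rules were chosen with earlier results of these data known. Genes described in full are those past the threshold with separated groups, those past it without wild type replicate 3 with a difference of at least 0.5 log2, those where that array departed by at least 1 log2, and MSN2 and MSN4; CTT1, HSP12, HXK1 and PAI3 were added after their values were seen. From each other list the up to 6 called genes with the smallest p, or the 2 smallest where none passed, were named. YJL144W was not analysed here, and 1 listed regulator is not reported here. The planned search for stress response elements was not run, since promoter sequences were not used here.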

Additional observations from a re-analysis of the deposited data

How the results depend on the processing

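Of the 35 differences, all kept their direction and side of the threshold with median centring, a robust variance prior, no dim probe sets, all probe sets tested or every probe set of a gene counted (each gene has 1). GRE1 lost its call without the variance trend, where GND2 gained one, and with quantile normalization. With array weights 18 stress genes were higher and 1 lower, and 600 and 436 of all tested probe sets. With the replicate number as a block, 16 were higher and 6 lower, the median difference was 0.21, and over all probe sets 478 and 380 were called; by construction that fit rests on replicates 4 and 6, since 3 and 5 occur in 1 genotype each. The deviations of same-numbered arrays correlated at 0.02 and -0.06, and those of differently numbered arrays at -0.08 to 0.12. With 2 shared numbers, and deviations taken from group means that include wild type replicate 3, these values cannot show whether same-numbered arrays were paired. At adjusted p thresholds of 0.01 and 0.1, 3 and 8 stress genes were higher, 1 was lower at 0.1, and over all probe sets 49 and 272 were higher and 18 and 150 lower. When each array was left out in turn, 2 to 20 stress genes were higher and 0 to 6 lower, against 17 to 656 and 5 to 556 of all probe sets; the highest counts came without wild type replicate 3 and the lowest nonzero ones without deletion replicate 5.

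Some differences changed sign. HSP12, FMP16 and SPG4 stood at -0.15, -0.54 and -1.03 with array weights and at -0.20, -0.64 and -1.31 with the replicate block, and ALD2 at 0.013 with the block. Over the fits that left out 1 array, HSP12 ranged from -0.18 to 0.27, FMP16 from -0.63 to 0.79, SPG4 from -1.23 to 1.11 and MOH1 from -0.93 to 0.45. Uncalled genes near 0 also crossed it: USV1 ranged from -0.14 to 0.034, SIP18 from -0.0095 to 0.28, ALD2 from -0.12 to 0.0033 and GRE3 from -0.030 to 0.22, where GRE3 passed without wild type replicate 3. The normalization alternatives for the departure of wild type replicate 3 were added after the data were examined and moved its median by less than the spread between wild type replicates 4 and 6.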
